A study of Homo sapiens with 16 samples.

Results

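Of the 60649 genes in the count table, 9 genes of the complement cascade and the acute-phase response were examined: C3, C1R, C1S, CFI, CD55, CD59, SERPING1, PTX3 and SAA1. They were chosen by name, with earlier results of these data known. Their Ensembl identifiers were matched to symbols with GENCODE, and all 9 were among the 19103 genes with enough counts to test. Complement is a cascade of proteins in plasma and tissue fluid. C1r and C1s are the proteases that start its classical pathway, C3 is the component on which its pathways converge, and a set of inhibitors keeps it from injuring host cells. Acute-phase proteins such as serum amyloid A are made in quantity during inflammation, mainly by the liver but also by connective tissue cells, and pentraxin 3 is a related pattern-recognition protein made at the site of inflammation.

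RNA was taken from ASC52telo, a line of human adipose mesenchymal stem cells (MSCs) made immortal with telomerase, so that all samples came from 1 line. The MmC+ cells had received mitomycin C (MmC), a DNA-crosslinking agent that served to induce senescence, at 1.5 µg/mL for 18 h, and the MmC- cells, called young, had not. GDF11, a growth factor of the TGF-beta superfamily, was given at 10 ng/mL over the next 10 days to the GDF11+ cells of both kinds and withheld from the GDF11- cells. The design asked how senescence and GDF11 change the transcriptome, and each combination is named by both treatments (MmC+/GDF11- being senescent cells without GDF11) and has 4 libraries, 16 in all.

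The libraries held between 71275337 and 144204979 counts, with a median of 86044010, and the 9 genes were counted between 19 times (CFI and SAA1) and 245017 times (C3) in a library. The 5 MSC markers (NT5E, THY1, ENG, CD44 and ITGB1) summed to between 4735 and 6428 CPM (counts normalized to sequencing depth, with the TMM scaling for composition) over all libraries, and all 5 were detected. The 5 hepatocyte markers (ALB, APOA1, TTR, CYP3A4 and APOB) summed to 0.0278 to 0.0782 CPM in young cells and to 0.122 to 0.391 CPM in senescent cells, and 1 of the 5, TTR, was at 0 in every library. The 5 leukocyte markers (PTPRC, CD68, CSF1R, LYZ and C1QA) summed to between 0.805 and 1.88 CPM, the 5 adipocyte markers (ADIPOQ, PLIN1, LEP, CIDEC and LIPE) to between 1.30 and 2.56 CPM, and the 5 endothelial markers (PECAM1, VWF, CDH5, TEK and EMCN) to 47.8 to 82.8 CPM in young and 54.6 to 112 CPM in senescent cells. For MmC without GDF11, CD68, LEP, PECAM1 and VWF were called higher and LIPE and CDH5 lower among the tested markers of these 3 lists. TEK, which made up most of the endothelial sum at 38.2 to 103 CPM, was not called. The 5 epithelial markers (EPCAM, KRT8, KRT18, CDH1 and KRT5) summed to 102 to 165 CPM in young and to 43.4 to 78.8 CPM in senescent cells, and KRT8 and KRT18 fell with MmC (log2 fold changes of -1.04 and -1.47 without GDF11). Their part in the results below was not tested. In such bulk samples, more cells that express a gene and more RNA of it per cell cannot be told apart.

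Replicate 1 stood apart from the other libraries of its group for many of the 9 genes. It was the highest of the 4 libraries in all 4 groups for C3, C1R, C1S, PTX3 and SAA1, and in 3 of the 4 for SERPING1. The labels give a single sequencing run for all libraries, and what replicate 1 shared across groups was not tested. The study names batch effects among its limitations without tying them to libraries. The MmC effects on the 9 genes are therefore given below also without replicate 1 of every group.

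Promoter sequences show what the starts of these genes hold, since several of the 9 genes moved with MmC. RefSeq windows (GRCh38.p14) were matched for 5 of the 9 genes, C1R, CFI, CD55, CD59 and PTX3. The cores searched on both strands of the 250 bases before the start were those of NF-kappaB (a match to its consensus), C/EBP (TTGCNNAA), STAT (TTCNNNGAA), AP-1 (TGANTCA), the interferon-stimulated response element (GAAANNGAA) and the TATA box (TATAAA). CFI and CD55 are shown because they were the genes with a window that passed the test for MmC, and PTX3 because it was the only one of the 5 with an NF-kappaB match, which partly overlaps a second match shifted by 1 base. The stretch before the first annotated base of the gene is given 5′ to 3′ on the gene's strand, with matches in capitals. CFI is read from the minus strand of chr4:109802151-109802249, CD55 from the plus strand of chr1:207321428-207321518, and PTX3 from the plus strand of chr3:157436600-157436849.
CFI: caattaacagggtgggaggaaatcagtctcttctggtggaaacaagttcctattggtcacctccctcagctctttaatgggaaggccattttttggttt
CD55: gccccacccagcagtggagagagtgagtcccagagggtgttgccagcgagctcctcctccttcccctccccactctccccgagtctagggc
PTX3: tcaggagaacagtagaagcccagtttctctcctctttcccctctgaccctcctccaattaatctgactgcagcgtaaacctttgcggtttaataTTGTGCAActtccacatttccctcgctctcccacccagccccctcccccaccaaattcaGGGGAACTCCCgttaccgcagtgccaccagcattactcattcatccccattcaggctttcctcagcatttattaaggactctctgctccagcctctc

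The capitals in PTX3 mark a C/EBP core 156 to 149 bases before the start and the NF-kappaB match 97 to 87 bases before it. CFI, CD55 and PTX3 had 1 window each, whereas C1R had 2 and CD59 had 4, 1 for each RefSeq start. The windows of CFI and CD55 held no match to any of the cores, also in the bases not shown. C1R held a C/EBP core in windows 1 and 2 and a STAT core in window 2. CD59 held a STAT core in windows 1 and 2, C/EBP cores in window 3 and AP-1 cores in window 4. Genes with more windows have more room for a match, and the shares that follow are per window. Over 34788 windows of 250 bases from all genes, 5.21% held an NF-kappaB match, 9.05% a C/EBP core, 6.57% a STAT core, 6.59% an AP-1 core, 6.89% an interferon-stimulated response element and 10.8% a TATA box. A match describes letters only, not a site in use.

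The central component, an acute-phase protein and 1 regulator were higher in MmC+ cells, and another regulator was lower. The remaining 5 genes did not pass the test in the main fit, which had no replicate term. Without GDF11, C3, SAA1 and CD55 rose by 3.42, 3.80 and 1.49 on the log2 scale and CFI fell by 3.17. The same 4 genes passed the test in the same directions with GDF11 present. Thus 3 of the 9 genes were called higher and 1 lower in each comparison. Over all 19103 genes, 22.9% were called higher and 22.4% lower without GDF11, and 23.4% were called higher and 23.3% lower with it. The median log2 fold change of the 9 genes was -0.21 without and 0.08 with GDF11, against -0.011 and -0.010 over all genes tested. The libraries of the compared groups did not overlap for 4 of the 9 genes in either comparison, where 37.3% of all genes did not overlap without GDF11 and 41.5% with it. Tests were edgeR's quasi-likelihood test with Benjamini-Hochberg adjustment over all genes tested and a threshold of 0.05, and intervals are 95% intervals from that fit. With a replicate block, in which libraries of the same number are paired, CD59 and PTX3 were also called without GDF11. C1S and CD59 were also called with GDF11 under that block.

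**Figure D1:**
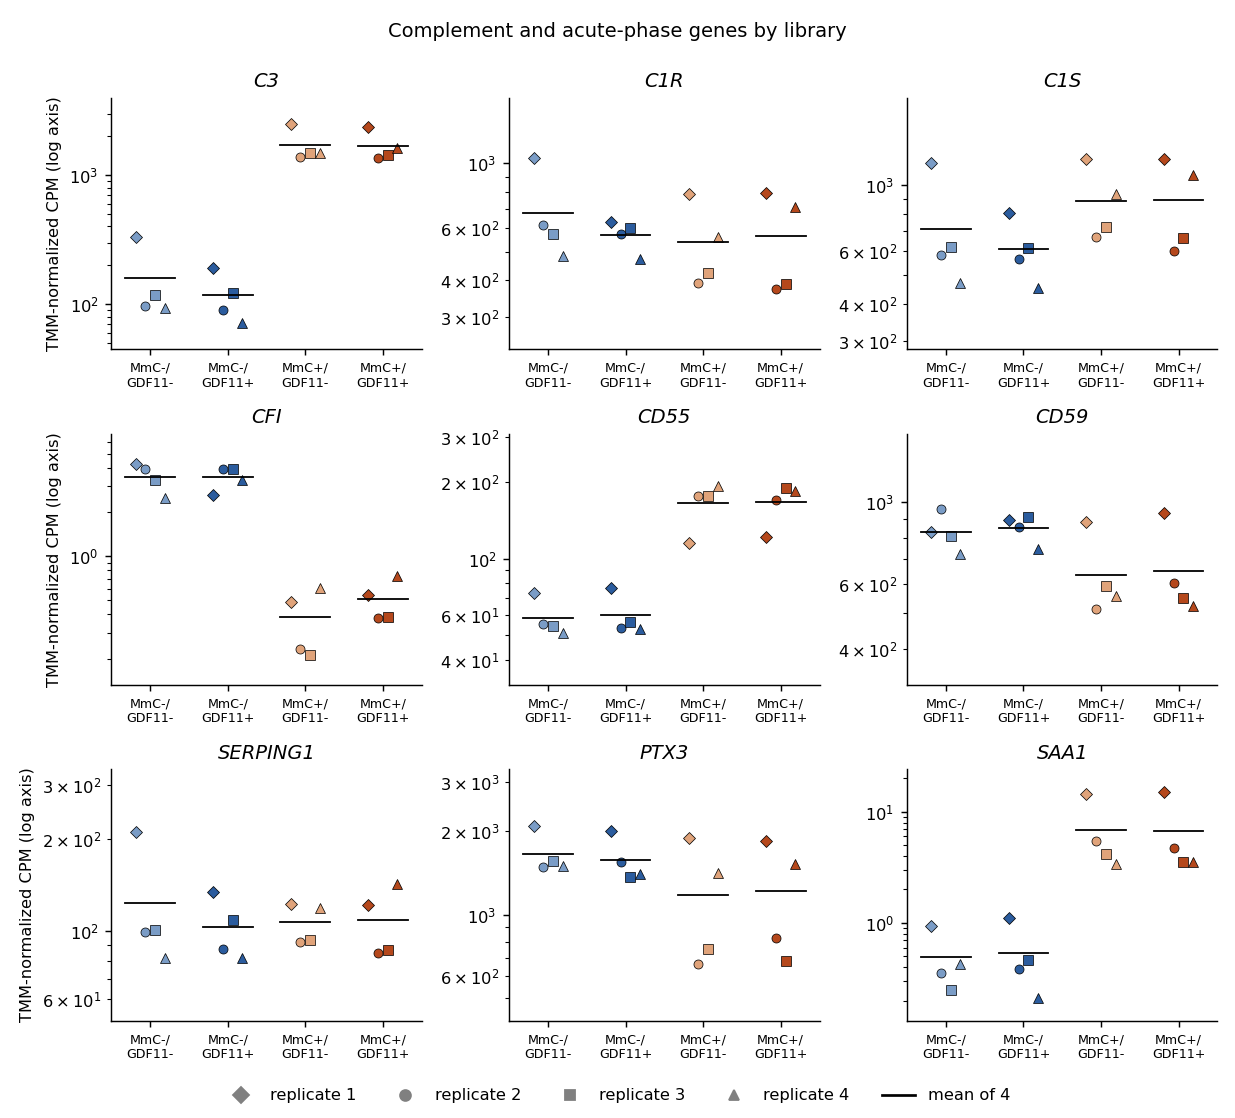
TMM-normalized CPM (y axis, log scale, a separate range in each panel) of the 9 genes in every library, by group, with a symbol per replicate number and a bar at the mean of 4. C3, SAA1 and CD55 lie higher and CFI lies lower in every MmC+ library than in any MmC- library, while the other 5 genes overlap, and replicate 1 (diamonds) is the highest library in all 4 groups for C3, C1R, C1S, PTX3 and SAA1.

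C3 (ENSG00000125730.17, chr19:6677704-6730562 in GRCh38, minus strand) encodes the component whose cleavage drives opsonization and the terminal pathway. In the order of the replicate numbers, MmC-/GDF11- libraries stood at 332, 96.1, 117 and 92.7 CPM, and MmC+/GDF11- libraries at 2482, 1377, 1492 and 1482 CPM. All MmC+ libraries lay above all MmC- libraries, and replicate 1 was the highest on both sides. The log2 fold change was 3.42 (SE 0.436, 10.7-fold, edgeR's adjusted p = 2.19e-05). With GDF11, C3 stood at 189, 90.7, 121 and 71.8 CPM in MmC-/GDF11+ and at 2365, 1351, 1419 and 1632 CPM in MmC+/GDF11+. The groups again did not overlap, and the log2 fold change was 3.84 (SE 0.445, 14.3-fold, edgeR's adjusted p = 9.26e-06). Leaving out MmC-/GDF11- replicate 1 raised the first value to 4.08, and leaving out replicate 1 of every group gave 3.83 and 3.96. Of the exonic bases of C3, 11.7% overlap an lncRNA (ENSG00000276980) on the same strand.

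SAA1 (ENSG00000173432.12, chr11:18266260-18269977, plus strand) encodes serum amyloid A1, a lipoprotein-bound acute-phase protein. Its level was low: 0.949, 0.352, 0.249 and 0.424 CPM in MmC-/GDF11-, against 14.3, 5.45, 4.14 and 3.41 CPM in MmC+/GDF11-. With GDF11 it was 1.10, 0.389, 0.460 and 0.212 CPM in MmC-/GDF11+ and 15.0, 4.72, 3.55 and 3.54 CPM in MmC+/GDF11+. No MmC- library reached the lowest MmC+ library, and replicate 1 was the highest of each group by a wide margin. The log2 fold change was 3.80 (SE 0.671, 13.9-fold, edgeR's adjusted p = 0.000350) without GDF11 and 3.64 (SE 0.669, 12.5-fold, edgeR's adjusted p = 0.000474) with it. It moved to 3.15 without MmC+/GDF11- replicate 1, and with GDF11 to 2.89 without MmC+/GDF11+ replicate 1 and to 4.26 without MmC-/GDF11+ replicate 1. Without replicate 1 of every group the values were 3.64 and 3.49. SAA1 shares sequence with its neighbour SAA2: 48% of its exonic 31-base words occur elsewhere in the genome, and 34.7% occur in SAA2, so that reads may be divided between them. With the counts of both genes summed, the log2 fold changes were 3.79 without and 3.71 with GDF11.

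CD55 (ENSG00000196352.16, chr1:207321519-207386804, plus strand) encodes decay-accelerating factor, a membrane-anchored protein that breaks up the enzymes which cleave C3. It stood at 73.5, 55.7, 54.4 and 51.2 CPM in MmC-/GDF11- and at 115, 176, 177 and 194 CPM in MmC+/GDF11-. With GDF11, its values were 76.9, 53.4, 56.6 and 53.1 CPM in young and 122, 171, 189 and 184 CPM in senescent cells. The groups did not overlap. Replicate 1 was the highest of the MmC- libraries and the lowest of the MmC+ libraries, unlike for C3. CD55 rose by 1.49 (SE 0.183, 2.81-fold, edgeR's adjusted p = 1.11e-05) on the log2 scale without GDF11, and by 1.47 (2.78-fold, edgeR's adjusted p = 1.22e-05) with it. Without replicate 1 of every group these values were 1.76 and 1.74.

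CFI (ENSG00000205403.14, chr4:109731008-109802150, minus strand) encodes factor I, the serum protease that cuts C3b into forms that no longer drive the cascade. It stood at 4.29, 3.92, 3.29 and 2.49 CPM in MmC-/GDF11- and at 0.486, 0.233, 0.212 and 0.610 CPM in MmC+/GDF11-. With GDF11, the values were 2.63, 3.94, 3.94 and 3.29 CPM in young and 0.547, 0.376, 0.382 and 0.736 CPM in senescent cells. Every MmC+ library lay below every MmC- library, with 19 to 69 counts behind each MmC+ value and 189 to 379 behind each MmC- value. CFI was 9.02-fold lower in MmC+ cells without GDF11 (log2 fold change -3.17, SE 0.324, edgeR's adjusted p = 1.81e-06) and 6.80-fold lower with it (-2.76, edgeR's adjusted p = 5.64e-06). Without replicate 1 of every group the log2 fold changes were -3.20 and -2.91. Of its exonic bases, 29.4% overlap a second gene (ENSG00000285330) on the same strand.

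**Figure D2:**
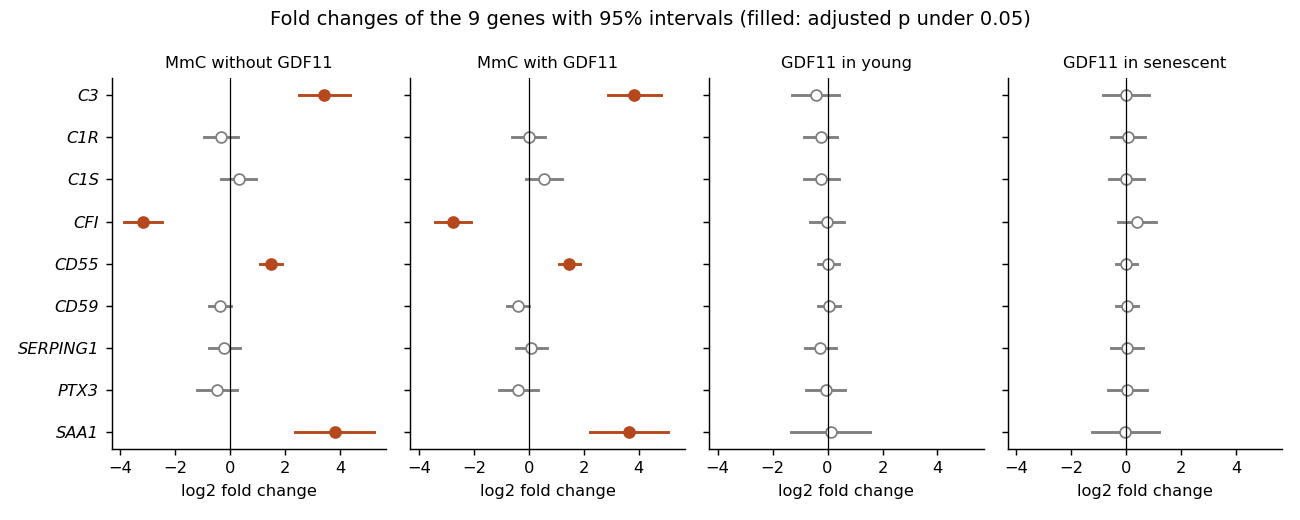
Log2 fold changes (x axis) with 95% intervals of the 9 genes for MmC without and with GDF11 and for GDF11 in young and in senescent cells, filled where the adjusted p is under 0.05. The intervals of C3, SAA1, CD55 and CFI lie clear of 0 in both MmC panels, and all 9 intervals include 0 in both GDF11 panels.

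The proteases that start the classical pathway did not pass the test. C1R (ENSG00000159403.18, chr12:7080214-7092540, minus strand) encodes the protease that activates C1s. It stood at 1047, 614, 573 and 482 CPM in MmC-/GDF11- and at 786, 392, 424 and 561 CPM in MmC+/GDF11-, and the groups overlapped (log2 fold change -0.33, interval -0.94 to 0.29, edgeR's adjusted p = 0.379). C1S (ENSG00000182326.15, chr12:6988259-7071032, plus strand) encodes the protease that cleaves C4 and C2. It stood at 1186, 582, 619 and 471 CPM in MmC-/GDF11- and at 1223, 668, 722 and 930.3 CPM in MmC+/GDF11- (log2 fold change 0.31, interval -0.33 to 0.95, edgeR's adjusted p = 0.428). With GDF11 the log2 fold changes were -0.01 (interval -0.63 to 0.60) for C1R and 0.55 (interval -0.10 to 1.19, edgeR's adjusted p = 0.151) for C1S. C1S with GDF11 passed the test without replicate 1 of every group (0.52, edgeR's adjusted p = 0.0443) and with a replicate block, in which libraries of the same number are paired (0.52, edgeR's adjusted p = 0.0260). Without replicate 1 of every group, C1S was 0.47 without GDF11, and C1R was -0.28 without and -0.16 with it. Of the exonic bases of C1R, 11.6% overlap its paralog C1RL on the same strand.

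The ratio of the 2 proteases was taken within each library, which removes differences in depth. Per kilobase of exon, C1R was 1.26, 1.51, 1.32 and 1.46 times C1S in replicates 1 to 4 of MmC-/GDF11-, and 1.12, 1.45, 1.40 and 1.49 times C1S in MmC-/GDF11+. In MmC+/GDF11- the ratio was 0.919, 0.839, 0.839 and 0.862, and in MmC+/GDF11+ it was 0.928, 0.887, 0.830 and 0.940. C1R thus exceeded C1S per kilobase in all 8 MmC- libraries and lay below it in all 8 MmC+ libraries. This describes a ratio that was given no test, and ratios of other gene pairs were not examined. Whether the ratio lies above or below 1 depends on the exon lengths used, 5803 bases for C1R and 8295 for C1S. In CPM alone, C1R lay below C1S also in MmC-/GDF11- replicate 1 (1047 against 1186). The lower ratio in MmC+ than in MmC- libraries does not depend on these lengths. The same kind of ratio for C3 over the summed regulators CFI, CD55, CD59 and SERPING1 was 0.130 ± 0.0795 (SD, n = 4) in MmC-/GDF11- and 0.0984 ± 0.0342 in MmC-/GDF11+. It was 1.59 ± 0.219 in MmC+/GDF11- and 1.55 ± 0.165 in MmC+/GDF11+, so that C3 RNA went from below to above the sum of these regulators.

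**Figure D3:**
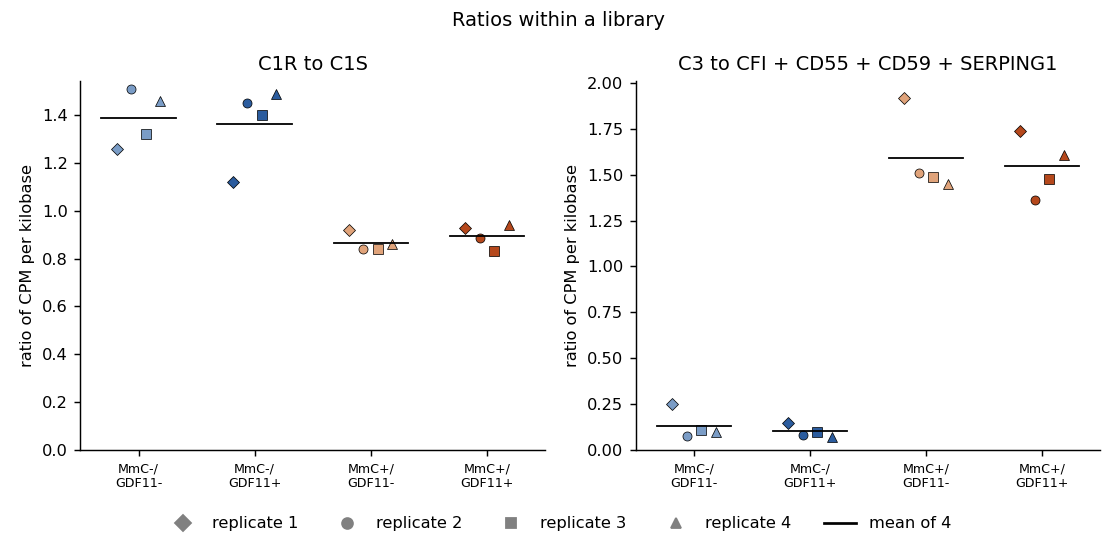
Ratios of CPM per kilobase within each library (y axes, from 0) by group, for C1R over C1S and for C3 over the sum of CFI, CD55, CD59 and SERPING1, with a symbol per replicate number and a bar at the mean of 4. The C1R to C1S ratio runs from 1.12 to 1.51 in MmC- and from 0.830 to 0.940 in MmC+ libraries, and the C3 ratio from 0.0705 to 0.248 and from 1.36 to 1.92.

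The other regulators were less changed. CD59 (ENSG00000085063.17, chr11:33703010-33736479, minus strand) encodes protectin, which blocks assembly of the membrane attack complex. It stood at 827, 954, 808 and 723 CPM in MmC-/GDF11- and at 881, 514, 594 and 557 CPM in MmC+/GDF11-. Replicate 1 alone of the MmC+ libraries lay within the MmC- range. The log2 fold change was -0.38 (interval -0.78 to 0.02, edgeR's adjusted p = 0.110) without GDF11 and -0.38 (interval -0.78 to 0.01, edgeR's adjusted p = 0.103) with it, so CD59 was not called. Its call depended on replicate 1: it was -0.56 (edgeR's adjusted p = 0.0144) without MmC+/GDF11- replicate 1, -0.60 (edgeR's adjusted p = 0.00689) with GDF11 without MmC+/GDF11+ replicate 1, and -0.58 in both comparisons without replicate 1 of every group. With the replicate block it was -0.41 (edgeR's adjusted p = 0.0173) without GDF11 and -0.42 (edgeR's adjusted p = 0.0149) with it. SERPING1 (ENSG00000149131.17, chr11:57597387-57619171, plus strand) encodes C1 inhibitor, which inactivates C1r and C1s. It ranged from 81.8 to 211 CPM in MmC- and from 84.8 to 143 CPM in MmC+ libraries (log2 fold change -0.21, interval -0.77 to 0.36, without GDF11 and 0.08, interval -0.48 to 0.65, with it). The first of these turned to 0.20 without MmC-/GDF11- replicate 1, and without replicate 1 of every group the values were 0.11 and 0.18.

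PTX3 (ENSG00000163661.4, chr3:157436850-157443633, plus strand) encodes pentraxin 3, which binds microbes and C1q. It stood at 2074, 1480.4, 1556 and 1494 CPM in MmC-/GDF11- and at 1889, 666, 753 and 1408 CPM in MmC+/GDF11-. Replicate 1 stood above the other MmC- libraries, and replicates 2 and 3 of the MmC+ cells lay well below replicates 1 and 4. With GDF11 the MmC+ values were 1836, 826, 679 and 1520.3 CPM, with the same replicates low. The log2 fold change was -0.49 (interval -1.20 to 0.23, edgeR's adjusted p = 0.254) without GDF11 and -0.38 (interval -1.09 to 0.34, edgeR's adjusted p = 0.381) with it. With the replicate block the first value was -0.60 (edgeR's adjusted p = 0.0259), past the threshold, and without replicate 1 of every group the values were -0.68 (edgeR's adjusted p = 0.0691) and -0.51.

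Levels between genes were compared per kilobase of exon. PTX3 was the highest of the 9 genes in every group, at 876 ± 151 CPM per kilobase (SD, n = 4) in MmC-/GDF11- and 626 ± 307 in MmC+/GDF11-. In MmC-/GDF11- it was followed by C1R (117), C1S (86.1) and CD59 (78.4), neighbours whose libraries overlapped, then by SERPING1 (17.1) and C3 (13.8), which also overlapped. CD55 (5.73) lay below these, and CFI (0.657) and SAA1 (0.465) were lowest and overlapped each other. In MmC+/GDF11- the second place was taken by C3 (148 ± 44.8), which overlapped C1S (107), as C1S did C1R (93.2) and C1R did CD59 (60.3). CD55 (16.1), SERPING1 (14.8) and SAA1 (6.43) followed, each overlapping the next, and CFI (0.0724) was last and clear of SAA1. The order in the GDF11+ groups was the same except that CD59 (80.7) stood above C1S (73.6) in MmC-/GDF11+.

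GDF11 changed none of the 9 genes detectably, in young or in senescent cells. edgeR called 0 of the 9 genes in young cells, in senescent cells and for the interaction of MmC and GDF11, and 0 of the 9 genes had an unadjusted p under 0.05 in any of these. limma-voom and DESeq2 also called 0 of the 9. Over all genes, edgeR called 0% in each of the 3 comparisons, with 226, 96 and 172 genes at an unadjusted p under 0.05. Chance alone would give a share of about 0.05 of the 19103 genes, which is more than these. The main fit was thus cautious for GDF11, and its large p-values say little about small effects. With the replicate block the numbers at an unadjusted p under 0.05 were 551, 145 and 296, still fewer than that share, and 0 genes were called. limma-voom called 0 genes, and DESeq2 called 1 gene in young cells and 0 in the other comparisons. The log2 fold changes ran from -0.43 (C3) to 0.12 (SAA1) in young cells and from -0.03 (SAA1) to 0.39 (CFI) in senescent cells, and the interaction ran from -0.16 (SAA1) to 0.42 (C3). The medians over the 9 genes were -0.07, 0.03 and 0.24, against -0.004, -0.003 and -0.004 over all genes. The range in young cells rested on 1 library, since without MmC-/GDF11- replicate 1 it was 0.04 to 0.63. The intervals show what could have been missed. That of C3 ran from -1.28 to 0.42 in young and from -0.86 to 0.83 in senescent cells, and that of SAA1 from -1.32 to 1.56 and from -1.26 to 1.20. The narrowest were those of CD55, from -0.35 to 0.41 and from -0.37 to 0.39. The comparisons share groups, and the MmC values with and without GDF11 are given side by side for that reason.

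Other genes of the cascade moved in both directions. Their list and the lists below were drawn up with earlier results of these data known. Counts from them, set beside those of all genes, are therefore a description and not independent evidence. Of 49 further complement genes, 23 were tested, and 8 rose, 6 fell and 9 were not called for MmC without GDF11, with a median log2 fold change of 0.36. The shares over all genes tested were 22.9% higher and 22.4% lower, with a median of -0.011. With GDF11, 9 rose, 6 fell and 8 were not called, beside 23.4% higher and 23.3% lower over all genes. VTN, which encodes vitronectin, an inhibitor of the terminal complex, rose by 3.32 on the log2 scale (edgeR's adjusted p = 0.000109), and by 4.03 without MmC-/GDF11- replicate 1. Of its exonic bases, 17.3% overlap another gene on the same strand. MASP1, a protease of the lectin pathway, rose by 1.50 (edgeR's adjusted p = 9.53e-06), and CD46, a membrane cofactor of factor I, rose by 0.89 (edgeR's adjusted p = 6.90e-05). COLEC12, a scavenger receptor with a collectin domain, fell by 1.74 (edgeR's adjusted p = 6.45e-05). CLU, clusterin, another inhibitor of the terminal complex, fell by 0.99 (edgeR's adjusted p = 0.00110), and C1QBP, a protein that binds C1q and resides largely in mitochondria, fell by 0.85 (edgeR's adjusted p = 9.52e-05). Of the exonic words of C2, CFB, C4A, C4B and CFD, between 99.2% and 100% also lie on alternate contigs of the genome. Whether the genome used for alignment held these contigs is not given, so low counts of these 5 genes may say little about them. For C4A and C4B, 97.2% of the words also occur elsewhere on the primary chromosomes. Alternate contigs also held 100% of the words of TNF, 96% of SERPINA1 and 92.1% of IFNGR2 in the lists below.

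Of 30 further acute-phase genes, 29 were matched and 13 tested, and 8 rose, 3 fell and 2 were not called for MmC without GDF11, with a median log2 fold change of 1.35, beside 22.9% higher, 22.4% lower and a median of -0.011 over all genes. With GDF11, 7 rose, 2 fell and 4 were not called, beside 23.4% higher and 23.3% lower over all genes. The genes at an average log2 CPM of at least 1 with no overlap between groups were FTH1 and FTL, the chains of ferritin, which stores iron, and MT2A, a metallothionein that binds zinc. FTH1 rose by 1.75 (edgeR's adjusted p = 2.76e-06), MT2A by 1.35 (edgeR's adjusted p = 0.00311) and FTL by 0.57 (edgeR's adjusted p = 0.00492) on the log2 scale. Of their exonic 31-base words, 33.3% (FTH1) and 49.1% (FTL) occur elsewhere in the genome. The other called genes of this list were at low levels. SAA2, for example, went from between 0.0311 and 0.0910 CPM in MmC-/GDF11- to between 0.641 and 1.53 CPM in MmC+/GDF11-. Where such liver genes rose, the hepatocyte markers also rose in sum but stayed at or below 0.391 CPM.

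Cytokines, receptors and transcription factors known to act on complement and acute-phase genes formed the third list, also drawn up with earlier results known. Of 34 genes, 30 were tested, and 17 rose, 2 fell and 11 were not called without GDF11, with a median log2 fold change of 0.48, where all genes had 22.9% higher, 22.4% lower and a median of -0.011. With GDF11, 18 rose, 3 fell and 9 were not called, beside 23.4% higher and 23.3% lower over all genes. IL6, the chief inducer of acute-phase genes in liver, rose by 7.38 (edgeR's adjusted p = 1.96e-06), LIF of the same cytokine family by 6.39 (edgeR's adjusted p = 9.61e-06), and IL11 of that family by 5.20 (edgeR's adjusted p = 0.000672) on the log2 scale. IL11 moved to 4.55 without MmC+/GDF11- replicate 2. IL1B and IL1A, the ligands of the interleukin-1 receptor, rose by 5.65 (edgeR's adjusted p = 1.03e-06) and 5.23 (edgeR's adjusted p = 1.07e-06), and NFKBIZ, a nuclear cofactor of NF-kappaB, by 2.31 (edgeR's adjusted p = 1.02e-08).

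**Figure D4:**
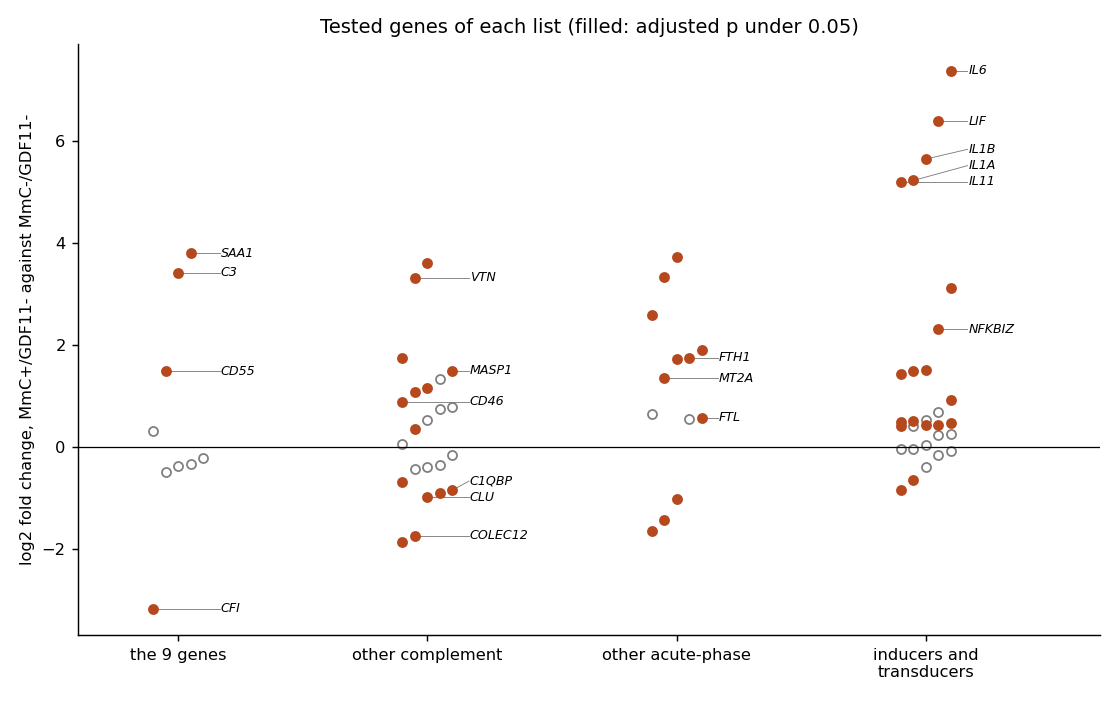
Log2 fold change of MmC+/GDF11- against MmC-/GDF11- (y axis) for each tested gene of the 9 genes, the other complement genes (23), the other acute-phase genes (13) and the inducers and transducers (30), filled where the adjusted p is under 0.05, with the genes named in the text labelled by thin lines. IL6 is the topmost point at 7.38, and the complement genes lie on both sides of 0.

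In the MmC+ groups, replicate 1 stood low for IL6 and LIF and high for C3 and SAA1. By replicate number, IL6 in MmC+/GDF11- stood at 146, 905, 840.2 and 741 CPM, and LIF at 57.8, 580.1, 515 and 526 CPM. Replicate 1 was thus the lowest MmC+/GDF11- library for both, whereas C3 (2482 CPM) and SAA1 (14.3 CPM) were highest in it. In MmC+/GDF11+ the same held, with IL6 at 134, 759, 911 and 663 CPM. Among the other libraries of MmC+/GDF11-, SAA1 (5.45, 4.14 and 3.41 CPM) stood in the order of IL6, and C3 (1377, 1492 and 1482 CPM) did not. Among the other libraries of MmC+/GDF11+, neither SAA1 nor C3 stood in the order of IL6. CD55 was the gene of the 9 with its lowest value in replicate 1 in both MmC+ groups. On the log2 scale, SAA1 stood 1.31 above and IL6 1.88 below its group mean (a deviation of -1.88) in MmC+/GDF11- replicate 1. In the MmC- groups, IL6 and SAA1 were both highest in replicate 1. Whether these cytokines acted on the 9 genes in these cells was not tested.

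**Figure D5:**
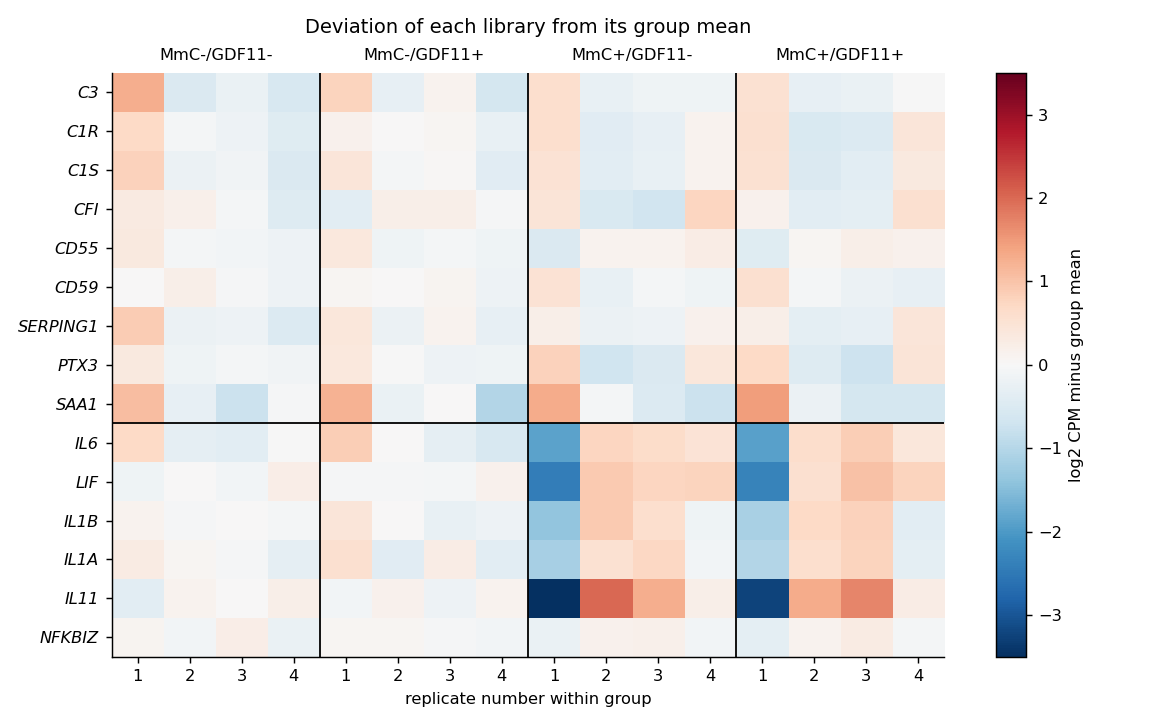
Deviation of each library from the mean of its group (colour, log2 CPM minus group mean) for the 9 genes and, under the line, 6 named cytokine and NF-kappaB genes, with the 4 replicates of each group side by side. Replicate 1 is above its group mean for C3 and SAA1 in all 4 groups, and below it for CD55 and the 6 lower genes in both MmC+ groups.

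The genes whose pattern over the 16 libraries was most like that of each gene were found among 10967 or, for CFI and SAA1, 10968 other protein-coding genes by the root mean square difference of centred log2 CPM, a description with no test. C3 was most like INPP5D (0.318) and CLCA2 (0.336), against its own spread of 1.95. SAA1 was most like C3 (0.489) and PTPRU (0.497), and its own spread was 1.96. CFI was most like CDH18 (0.292) and ADAMTS15 (0.329), and CD55 like SIRPA (0.113) and SDCBP2 (0.146). C1R was most like C1RL (0.152), the gene with which its exons overlap, and CDC14B (0.163), and C1S like MS4A4E and EMILIN2 (0.161 each). CD59 was most like FIG4 (0.0784) and ARPC5 (0.0841), SERPING1 like BCAM (0.146) and ZNF589 (0.148), and PTX3 like EFEMP1 (0.179) and HS6ST1 (0.192).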

How the data were processed

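Poly(A)-enriched RNA of 16 ASC52telo libraries was prepared with a directional kit and sequenced. Alignment by the authors used HISAT2 2.2.1 and the hg38 genome, reads were assigned to genes of GENCODE 38 with featureCounts 2.0.1, and the authors deposited raw counts without normalization. The strand setting and the treatment of read pairs and of reads that align to several places are not given in the sources used here.

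Groups and replicate numbers came from the sample titles. Symbols, positions and exonic lengths came from GENCODE release 44, which matched 60463 of 60649 identifiers; the lengths stood in for gene lengths because the table has none. SOD2, listed among the acute-phase genes, was not matched. The filterByExpr function of edgeR 4.0.16 (R 4.3.3; minimum count 10, minimum total 15) selected the genes, TMM factors scaled the libraries, and a robust quasi-likelihood model was fitted to all 16 of them with a mean per group and no replicate term. The effect of MmC was taken at each GDF11 level, that of GDF11 at each MmC level, and their interaction as the difference, with p-values adjusted by Benjamini-Hochberg over 19103 genes with a threshold of 0.05. The script was tested on simulated data. CPM are TMM-normalized, and log2 CPM used a prior count of 2.

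The 9 genes and the lists were chosen with earlier results of these data known. Besides the 9 genes, the text names up to 6 genes of each other list with the largest changes for MmC without GDF11 (adjusted p under 0.05, average log2 CPM of at least 1, no overlap between groups), the markers, and the 2 genes most like each of the 9. SAA2, C2, CFB, C4A, C4B, CFD, TNF, SERPINA1 and IFNGR2 were named after their values were seen. Alternatives were other scalings and filters, only the libraries compared, a replicate block, limma-voom (limma 3.58.1), DESeq2 1.42.0, glmTreat against a log2 fold change of 1, SAA1 and SAA2 summed, and leaving out each library or replicate 1 of every group.

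The replicates of a group are biological ones by the study's methods, and no source says whether a number marks a shared culture across groups. Deviations of same-numbered libraries were positively correlated in all pairs, and numbers were taken to pair libraries where every correlation was over 0.1. This held for MmC without GDF11 (0.113 to 0.368) and GDF11 in senescent cells (0.448 to 0.818). For MmC with GDF11 (0.0293 to 0.311) and GDF11 in young cells (0.0982 to 0.504) 1 pair of the 4, replicate 3, lay under it. The main fit still had no replicate term, since the study's methods name no test and no block. The replicate block was run as an alternative. Libraries of a group differed by 56.9 to 628 times the sampling noise, so no 2 libraries of a group held the same counts. That does not show that they came from separate cultures. Libraries of different groups were not compared in this way.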

Additional observations from a re-analysis of the deposited data

Results flagged for a closer look

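In groups of 4 libraries, the gap from the highest or lowest library to its neighbour was set against the range of the group, for 104 groups in all. Chance alone marks about 1 in 20 such groups, and 11 were marked. In each of the 11 the library was replicate 1. In MmC-/GDF11- these were C3 at 332 CPM (the next library at 117), SERPING1 at 211 CPM (next 101), PTX3 at 2074 CPM (next 1556), MASP1 at 117 CPM (next 88.5) and the ratio of C3 to its regulators at 0.248 (next 0.104). In MmC-/GDF11+ they were CD55 at 76.9 CPM (next 56.6) and VTN at 1.28 CPM (next 0.690). In MmC+/GDF11- they were C3 at 2482 CPM (next 1492), the ratio of C3 to its regulators at 1.92 (next 1.51) and LIF at 57.8 CPM, the only one marked for being low (next 515). In MmC+/GDF11+ it was SAA1 at 15.0 CPM (next 4.72). The values are not independent of each other, since replicate 1 enters all of them and C3 enters both ratios. What sets replicate 1 apart was not tested.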

How the results depend on the processing

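C3, SAA1, CD55 and CFI kept their direction and passed the threshold in both MmC comparisons under every alternative run, among them DESeq2, limma-voom and the test against a log2 fold change of 1, with log2 fold changes of 3.19 to 4.08, 3.15 to 4.31, 1.42 to 1.76 and -3.47 to -2.97 without GDF11. With the replicate block, 6 of the 9 genes were called in each MmC comparison, adding CD59 and PTX3 without GDF11, and C1S (0.52, edgeR's adjusted p = 0.0260) and CD59 (-0.42, edgeR's adjusted p = 0.0149) with it. The block called 0 of the 9 for GDF11, and over all genes 11066 and 11267 for MmC, against 8655 and 8926. Without replicate 1 of every group, 5 and 6 of the 9 were called, and 10004 and 10164 of 19338 genes over all. Of the other lists, 15 complement, 12 acute-phase and 21 inducer genes were then called for MmC without GDF11, against 14, 11 and 19. The 2 uncalled genes nearest to 0 changed sign: C1R with GDF11 (-0.01) was 0.01 with RLE scaling, DESeq2 or only the libraries compared, 0.03 with upper-quartile scaling, 0.04 with at least 10 counts in every library, and -0.21 to 0.16 when single libraries were left out. SERPING1 without GDF11 (-0.21) was 0.11 without replicate 1 of every group and -0.35 to 0.20 when single libraries were left out, and with GDF11 (0.08) it was -0.06 to 0.25. Requiring 10 counts in every library left 4 called acute-phase genes in place of 11, since fewer genes were tested. The test against a log2 fold change of 1 left 4 of 14 complement, 4 of 11 acute-phase and 10 of 19 inducer genes, since it asks for larger changes, and over all genes 1294 and 1235. With no filter on low counts the median of all genes was 0.120 for MmC with GDF11. Over all results and settings, 1379 values counted as kept, 18 changed sign, 17 moved further, 9 gained a call and 5 lost one. Kept fold changes of single genes held their direction and side of the threshold, and kept counts stayed within 1.5 times. The lowest and highest GDF11 and interaction values of the 9 genes had only to stay within 0.444 of the main fit, whatever their sign. The 5 lost calls were CLU, CD46, C1QBP, MT2A and FTL in the test against a log2 fold change of 1. SAA1 and CFI rest on as few as 19 counts in a library.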
